A study of Mus musculus with 12 samples.

Results

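Serum amyloid A, Serpina3 and fibrinogen transcripts were followed in the kidney cortex of mice with glomerulonephritis (GN, inflammation of the filtering units of the kidney) and of control mice, with and without captopril. The 10 genes were Saa1, Saa2, Saa3, Serpina3f, Serpina3g, Serpina3n, Serpina3i, Fga, Fgb and Fgg, found by symbol among the 24452 symbols of the deposited count table. They were chosen by their differences between GN and control kidneys, and by the unevenness of Saa3 within GN, in earlier results of these data, so their values in those comparisons are given as a description, without a test. The filter on low counts was passed by 7 of the 10, among 14618 genes in all. Saa1, Saa2 and Serpina3i did not pass it.

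RNA was measured by stranded mRNA sequencing in 12 libraries of C57BL/6 mice, all labelled adult male, in 4 groups of 3. GN_captopril and GN_water mice had GN and drank captopril or water. To induce it, mice were injected in the peritoneum for 6 weeks, 5 times a week with 10 mg of apoferritin from horse spleen, a foreign protein, and 3 times a week with 100 micrograms of lipopolysaccharide (LPS). Control_captopril and Control_water mice were injected with saline, and all mice were killed at 9 weeks. The drug captopril blocks angiotensin-converting enzyme. No dose of it is stated in the labels. Every GN mouse had received LPS, itself an inducer of acute phase genes, so GN and LPS cannot be told apart. A title pairs consecutive numbers, and whether mice were pooled into a library is not stated. P-values therefore measure the spread between these libraries.

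Acute phase proteins are blood proteins whose levels change in inflammation, most of them made by the liver under interleukin 6, interleukin 1 and TNF. Saa1 and Saa2 encode the liver serum amyloid A proteins that travel on high-density lipoprotein, while Saa3 is made mainly outside the liver, among others by macrophages and fat cells. Serpina3 genes are a mouse cluster that corresponds to the single human gene of alpha-1-antichymotrypsin, a serine protease inhibitor. Fga, Fgb and Fgg encode the 3 chains of fibrinogen, the precursor of the fibrin clot, and the tubular epithelium of injured kidneys is also known to express them.

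Libraries held 14.2 to 22.8 M counts (M, mega), and values below are CPM, the counts of a gene per M counts of the library after scaling for depth. A floor of 3 counts was worth 0.123 to 0.215 CPM, depending on the library, and covers counting error only. In 6 of the 12 libraries, sex-linked transcripts went against the label male. The 4 Y-linked genes measured summed to between 123.6 and 129.1 CPM in GN_captopril, to at most 0.0458 CPM in GN_water, to at most 0.101 CPM in Control_captopril and to between 121.1 and 143.8 CPM in Control_water. Xist, expressed from the inactive X chromosome, was at most 0.0718 CPM in GN_captopril, 181 to 211.8 CPM in GN_water, 314.5 to 374.8 CPM in Control_captopril and at most 0.182 CPM in Control_water. Renin (Ren1), which is known to rise under this drug, was higher in the group labelled captopril among GN libraries (438.3 to 690.7 CPM in GN_captopril, 20.8 to 30.2 CPM in GN_water) and lower in it among controls (63.4 to 82.8 CPM in Control_captopril, 1083 to 1794 CPM in Control_water). Captopril and water within GN, and within controls, therefore cannot be told apart from whatever separates the Xist-bearing from the Y-bearing libraries, and results are given with comparisons between groups that carry the same markers. Whether labels were exchanged between groups was not tested, and no library was regrouped. An exchange of Control_captopril with Control_water would turn the sign of their differences, and the interaction would become a sum of both differences. The average of captopril over GN and controls would then be tested as the interaction is here. Proximal tubule markers summed to between 7674 and 13280 CPM in all libraries.

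The promoters of the genes that carry the results below are printed to let their sequences be compared. Each holds 250 bases before and 50 after the RefSeq transcript start in GRCm38.p6, whose coordinates are those of mm10, read 5′ to 3′ on the gene's own strand. All 10 genes were matched by symbol, Serpina3f with a pair of starts. Capitals mark matches, on either strand, to 4 motifs of factors that act downstream of interleukin 6 and interleukin 1: a C/EBP-type motif (TTGCNNAA), a STAT-type motif (TTCNNNGAA), the core of the interleukin 6 response element (CTGGGAA) and a kappaB-type motif (GGGA and CC with 4 bases of any kind between them).
Saa3 promoter, chr7:46715627-46715926, minus strand: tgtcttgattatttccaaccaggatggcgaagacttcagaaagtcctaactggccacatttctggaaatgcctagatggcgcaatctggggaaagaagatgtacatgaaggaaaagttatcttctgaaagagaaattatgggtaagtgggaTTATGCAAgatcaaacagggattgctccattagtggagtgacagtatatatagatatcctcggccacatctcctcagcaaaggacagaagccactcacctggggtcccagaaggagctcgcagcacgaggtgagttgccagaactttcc
Saa1 promoter, chr7:46742931-46743230, minus strand: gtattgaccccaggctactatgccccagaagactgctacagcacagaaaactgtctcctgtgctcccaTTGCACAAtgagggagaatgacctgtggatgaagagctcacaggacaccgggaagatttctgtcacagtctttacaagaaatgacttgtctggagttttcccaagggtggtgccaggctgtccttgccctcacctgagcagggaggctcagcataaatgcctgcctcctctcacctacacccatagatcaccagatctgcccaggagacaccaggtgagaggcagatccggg
Serpina3g promoter, chr12:104235897-104236196, plus strand: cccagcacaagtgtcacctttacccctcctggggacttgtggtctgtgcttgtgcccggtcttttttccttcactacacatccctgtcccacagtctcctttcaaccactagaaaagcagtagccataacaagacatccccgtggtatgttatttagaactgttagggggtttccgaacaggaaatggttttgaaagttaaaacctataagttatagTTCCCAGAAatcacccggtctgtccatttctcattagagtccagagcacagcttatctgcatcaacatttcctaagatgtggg
Serpina3n promoter, chr12:104406458-104406757, plus strand: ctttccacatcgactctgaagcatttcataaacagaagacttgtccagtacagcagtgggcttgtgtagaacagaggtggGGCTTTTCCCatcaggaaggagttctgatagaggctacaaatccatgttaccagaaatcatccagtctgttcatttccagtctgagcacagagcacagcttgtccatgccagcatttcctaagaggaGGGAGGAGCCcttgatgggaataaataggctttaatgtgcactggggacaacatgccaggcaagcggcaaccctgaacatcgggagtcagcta
Fgb promoter, chr3:83049814-83050113, minus strand: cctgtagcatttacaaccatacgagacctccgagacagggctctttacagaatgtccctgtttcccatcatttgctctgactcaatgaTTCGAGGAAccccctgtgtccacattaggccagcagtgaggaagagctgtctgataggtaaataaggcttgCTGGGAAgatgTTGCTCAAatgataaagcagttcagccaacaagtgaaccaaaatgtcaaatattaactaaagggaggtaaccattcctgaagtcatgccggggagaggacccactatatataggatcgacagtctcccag

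Saa3 held a C/EBP-type match whose first base lay at -99 from the start, and the match of Saa1 lay at -182. In Serpina3g a STAT-type match and an interleukin 6 core on the opposite strand overlapped, both from -33. Serpina3n held kappaB-type matches at -170 and -43, and none of the other 3 motifs. In Fgb a STAT-type match lay at -162, an interleukin 6 core at -91 and a C/EBP-type match at -80. Of 32851 mouse promoters of the same length, 10.8% held the C/EBP-type motif, 8.3% the STAT-type motif, 11.1% the interleukin 6 core and 20.7% the kappaB-type motif. A match describes letters in this window and is neither a binding site nor a cause.

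Saa3 was high and uneven in GN kidneys and at or near the floor in controls, while the liver serum amyloid genes stayed close to 0 counts everywhere. Saa3 (chromosome 7, 46711998 to 46715700, minus strand, GENCODE M21 on mm10) had 2.13, 3.51 and 57.7 CPM in GN_captopril, 21.6, 151 and 37.8 CPM in GN_water, 0.269, 0.599 and 0.303 CPM in Control_captopril and 0.0466, 0 and 0.0645 CPM in Control_water, in the order of replicates 1 to 3. All 6 GN libraries lay above all 6 controls, and within GN the groups overlapped, because GN_captopril replicate 3 exceeded 2 of the 3 GN_water libraries. The counts behind these values were 32, 64 and 804 in GN_captopril, 472, 3675 and 764 in GN_water, 6, 13 and 6 in Control_captopril and 1, 0 and 1 in Control_water.

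Mean Saa3 was 21.1 ± 31.7 CPM in GN_captopril, 70.2 ± 70.6 CPM in GN_water and 0.390 ± 0.181 CPM in Control_captopril (SD, n = 3 each). The SD was as large as the mean or larger in both GN groups. The mean of GN_captopril was 54.1 times, and that of GN_water 179.7 times, that of Control_captopril. No fold is given against Control_water, which held 2 counts in all. The log2 difference of GN_captopril to GN_water was -1.79 ± 0.86 (SE). It was between -4.62 and -0.47 when each library was left out in turn. Its lowest value came without GN_captopril replicate 3, so that single library set much of the mean. Without it the fitted log2 difference of GN_captopril to Control_captopril was 2.85, against 5.68 with it.

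Saa1 and Saa2 (chromosome 7, 46740497 to 46742980 and 46751790 to 46754313) had 22 and 2 counts in all 12 libraries together, after rounding. For Saa1 the counts were 0, 1 and 0 in GN_captopril, 2, 4 and 9 in GN_water, 2, 0 and 0 in Control_captopril and 1, 3 and 0 in Control_water. Counts above the floor of 3 were seen in GN_water replicates 2 and 3 alone. Saa2 was at 0 in 10 libraries and at 1 count in the other 2. The Saa1 and Saa2 promoters were identical at 95.3% of aligned columns and the coding sequences at 95.1%, so reads can be shared between them, whereas Saa1 and Saa3 shared 73.1% of coding columns.

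The Serpina3 genes were higher in GN than in control kidneys, and their spread between libraries relative to the mean was smaller than that of Saa3 within GN_captopril and within GN_water, which did not hold for Serpina3f, Serpina3i and Serpina3n within Control_captopril. Serpina3g, an inhibitor known in T cells and macrophages (chromosome 12, 104236245 to 104241939, plus strand), had 11.96, 8.89 and 17.2 CPM in GN_captopril, 23.4, 24.5 and 23.4 CPM in GN_water, 1.21, 3.18 and 3.14 CPM in Control_captopril and 0.978, 1.64 and 1.22 CPM in Control_water. All 3 GN_water libraries lay above all GN_captopril libraries, these lay above every control, and the control groups overlapped. Relative to Control_water, mean Serpina3g was 18.6 times as high in GN_water (23.8 ± 0.617 against 1.28 ± 0.334 CPM, SD, n = 3 each). In the comparisons of libraries with the same sex-linked markers its log2 difference was 3.25 ± 0.28 (GN_water minus Control_captopril) and 3.31 ± 0.33 (GN_captopril minus Control_water).

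Serpina3n, an inhibitor of granzyme B known from liver and reactive astrocytes (chromosome 12, 104406729 to 104414329, plus strand), had 1.06, 1.59 and 6.46 CPM in GN_captopril, 6.60, 10.8 and 6.47 CPM in GN_water, 0.314, 0.276 and 0.658 CPM in Control_captopril and 0.791, 1.15 and 1.10 CPM in Control_water. GN_captopril replicate 3 stood next to the GN_water libraries, and replicate 1 fell inside the range of Control_water. The log2 difference with the same sex-linked markers was 4.26 ± 0.59 (GN_water minus Control_captopril) and 1.56 ± 0.58 (GN_captopril minus Control_water). The smaller value was 0.42 without GN_captopril replicate 3.

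Serpina3f (chromosome 12, 104214544 to 104221129, plus strand), a neighbour of Serpina3g in the cluster, had lower values: 1.39, 0.878 and 2.58 CPM in GN_captopril, 3.76, 3.25 and 3.86 CPM in GN_water, 0, 0.507 and 0.506 CPM in Control_captopril and 0.186, 0.364 and 0.322 CPM in Control_water. Its GN groups did not overlap each other or the controls. With the same sex-linked markers its log2 difference was 3.42 ± 0.53 (GN_water minus Control_captopril) and 2.46 ± 0.63 (GN_captopril minus Control_water). Serpina3i (chromosome 12, 104263122 to 104269372, plus strand), a neighbour whose function is not well described, summed to 34 counts in the 12 libraries. It had 1, 2 and 4 counts in GN_captopril, 3, 9 and 13 in GN_water, 1, 1 and 0 in Control_captopril and 0 in each Control_water library. Of the 7 members that passed the filter, Saa3, Serpina3f and Serpina3g had all 6 GN libraries above all 6 controls, as had 5.38% of all genes tested. This contrast chose the genes, so nothing is read from the share.

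The deposited estimated counts of the Serpina3 genes were often not whole, in 8 of 12 libraries for Serpina3f, Serpina3n and Serpina3i and in 10 of 12 for Serpina3g, as when reads are divided between similar genes. The coding sequences of Serpina3f and Serpina3i were identical at 83.9% of aligned columns and those of Serpina3i and Serpina3n at 82.9%. Serpina3g reached only 48.6% with Serpina3f and 40.6% with Serpina3n. Its annotated coding sequence was shorter, 744 bases against 1335 for Serpina3f, and gap columns were counted. How reads were assigned among the Serpina3 genes is uncertain. The counts of Saa3 and of the fibrinogen genes were whole in every library.

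**Figure D1:**
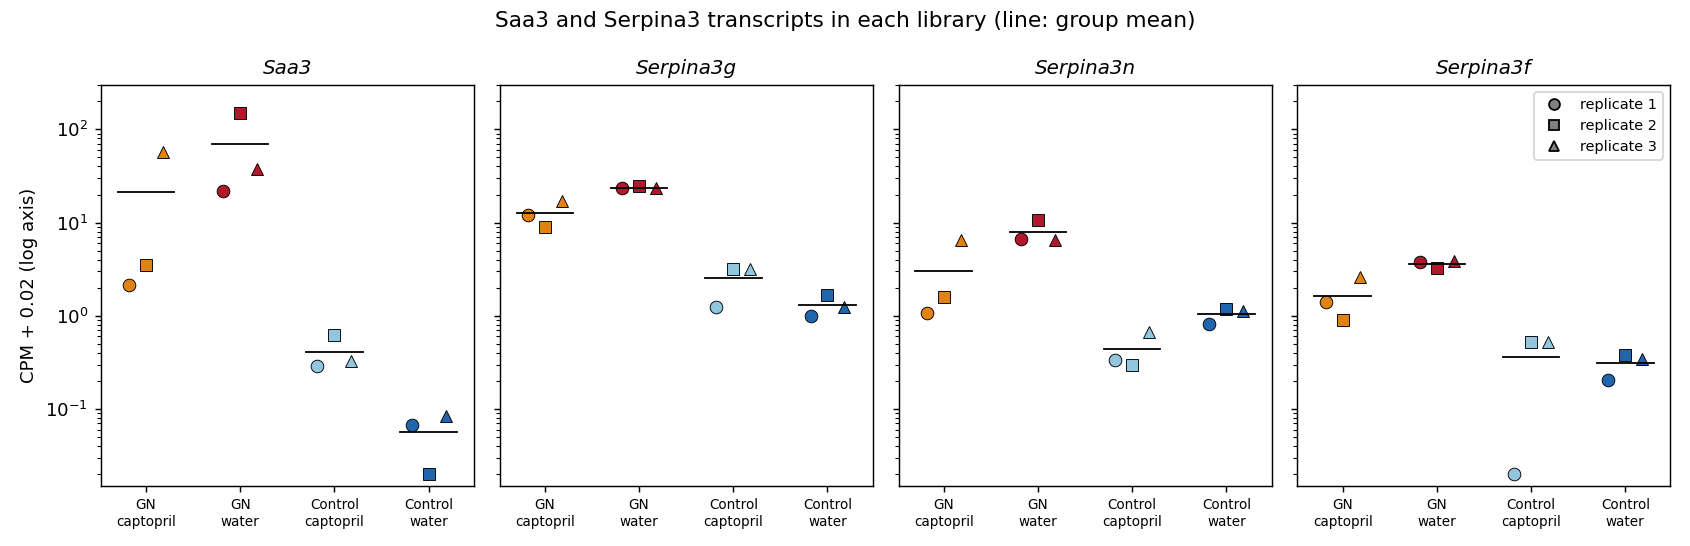
Each panel plots one transcript, in CPM with 0.02 added on a log axis, against the 4 groups, with a symbol for each of the 3 libraries of a group and a line at the group mean. Saa3 spreads from 2.13 to 57.7 CPM in GN_captopril, whereas Serpina3g lies between 23.4 and 24.5 CPM in GN_water.

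For none of the fibrinogen chains did all 6 GN libraries separate from the controls, which was also so for Serpina3n. Averaged over both treatments, the log2 difference of GN to control was -0.03 for Fga, -0.15 for Fgb and 0.59 for Fgg. It was 2.91 for Serpina3n. Fga, the alpha chain (chromosome 3, 83026076 to 83033627, plus strand), had 38.2, 22.9 and 30.5 CPM in GN_captopril, 39.1, 39.5 and 42.9 CPM in GN_water, 45.6, 35.7 and 32.7 CPM in Control_captopril and 39.7, 36.1 and 25.4 CPM in Control_water. GN_captopril lay wholly below GN_water, and every other pair of groups overlapped. With the same sex-linked markers the log2 difference of Fga was 0.09 ± 0.18 (GN_water minus Control_captopril) and -0.16 ± 0.19 (GN_captopril minus Control_water).

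Fgg, the gamma chain (chromosome 3, 83007724 to 83015049, plus strand), had 25.0, 12.9 and 11.98 CPM in GN_captopril, 29.8, 28.1 and 30.3 CPM in GN_water, 17.7, 17.1 and 10.2 CPM in Control_captopril and 15.1, 16.8 and 10.9 CPM in Control_water. GN_water stood above the other 3 groups, which overlapped. With the same sex-linked markers its log2 difference was 0.97 ± 0.25 (GN_water minus Control_captopril) and 0.21 ± 0.26 (GN_captopril minus Control_water). GN_water minus Control_water, whose markers differ, was 1.04 ± 0.25.

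Fgb, the beta chain (chromosome 3, 83040141 to 83049863, minus strand), had 3.92, 3.73 and 2.08 CPM in GN_captopril, 8.98, 11.7 and 11.1 CPM in GN_water, 8.93, 11.5 and 5.66 CPM in Control_captopril and 3.91, 8.62 and 2.26 CPM in Control_water. The groups that carried Xist, GN_water and Control_captopril, overlapped each other, and so did the groups that carried Y-linked transcripts, GN_captopril and Control_water. Between groups with the same markers its log2 difference was 0.28 ± 0.34 (GN_water minus Control_captopril) and -0.58 ± 0.41 (GN_captopril minus Control_water). Without Control_water replicate 2 the second difference was 0.055.

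Per kilobase of exon, mean Fgb was the lowest of the 3 chains in every group, at 0.851 CPM per kilobase in GN_captopril and 2.78 in GN_water, where Fga had 10.1 and 13.5 and Fgg 7.94 and 14.1. It was also the lowest per kilobase of coding sequence, at 2.25 CPM in GN_captopril and 7.34 CPM in GN_water. In bulk tissue, fewer cells of a type and less RNA per cell cannot be told apart.

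**Figure D2:**
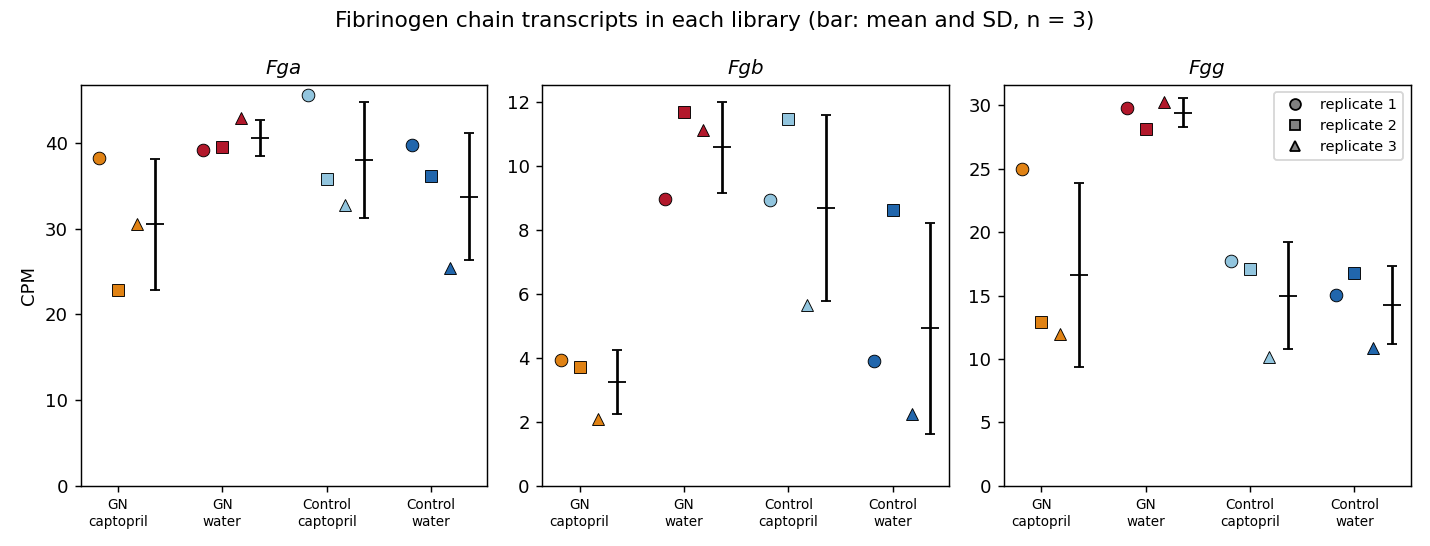
Each panel plots one fibrinogen chain in CPM, on a linear axis from 0, for the 3 libraries of each group, with the mean and SD beside them. Fgg of the GN_water libraries (28.1 to 30.3 CPM) lies above all other libraries, and Fgb of GN_captopril (2.08 to 3.92 CPM) lies below GN_water and Control_captopril.

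Captopril within GN was tested with edgeR's quasi-likelihood test with Benjamini-Hochberg adjustment over all genes. Of the 9 genes counted here, which leave out Saa3 because its unevenness within GN was known, 6 passed the filter, and 5 of these fell in GN_captopril relative to GN_water while none rose. All 6 had their GN_captopril libraries below all GN_water libraries, as had 31.7% of all genes tested. Among all genes tested 25.5% fell and 45.1% changed. The median log2 difference of the 6 was -1.05, against -0.05 for all genes. GN_water had the highest mean of each of the 6 and took part in the comparisons that chose them. Genes chosen so can look lower in any comparison with GN_water. This test, the interaction and the captopril average below all include GN_water, so none of them is independent of the choice. The control libraries took part in the same choosing comparisons, so the test among controls shares libraries with the choice too. Fgb fell by 1.69 on the log2 scale (SE 0.39, adjusted p = 0.00331). Serpina3g fell by 0.92 (SE 0.24, adjusted p = 0.00796). The differences were -1.43 ± 0.46 for Serpina3n (adjusted p = 0.0236), -1.19 ± 0.44 for Serpina3f (adjusted p = 0.0426) and -0.83 ± 0.25 for Fgg (adjusted p = 0.0165). Fga had -0.41 ± 0.18 and did not pass (adjusted p = 0.0808). It passed with a replicate block (0.035), in limma on log2(RPKM + 0.1) and log2(RPKM + 1) (0.0356 and 0.0366) and without GN_captopril replicate 1 (0.0217), and under the first 3 of these all 6 genes were called lower.

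The calls of Serpina3g and Fgb held when any single library was left out, with adjusted p up to 0.0416 and 0.0135. That of Serpina3f was lost without GN_captopril replicate 1 or 2, any GN_water library or Control_water replicate 3 (highest adjusted p = 0.166). That of Serpina3n was lost without GN_captopril replicate 1 or 2 or GN_water replicate 2 (highest 0.111), in DESeq2 (0.0703) and in a fit of the 2 groups alone (0.0619), and that of Fgg without GN_captopril replicate 2 or 3 or GN_water replicate 1 or 3 (highest 0.0767). Without GN_captopril replicate 2, 2 calls remained of 5, and without GN_water replicate 1, 2 or 3 the count was 3. The markers listed above move with this comparison: both the Xist and the Y-linked transcripts separate its groups completely. So do 6 fibroblast markers, which summed to between 288.4 and 456.9 CPM in GN_captopril and 494.4 and 678.6 CPM in GN_water. By the same test 5 of these 6 markers were lower, as were 25.5% of all genes. Their part in the result was not tested.

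Among controls, none of the 6 passed the test of Control_captopril against Control_water, where 32.4% of all genes changed. At an unadjusted p under 0.05, 2 were higher and 0 lower, and DESeq2 called 1 higher, Serpina3g (adjusted p = 0.013). Serpina3g differed by 0.98 on the log2 scale (95% interval 0.15 to 1.81, edgeR adjusted p = 0.0687). Fgb differed by 0.82 (0.03 to 1.62, edgeR adjusted p = 0.108). Serpina3g passed without Control_captopril replicate 1, GN_captopril replicate 2 or GN_captopril replicate 3 (edgeR adjusted p = 0.00756, 0.0481 and 0.0394), and Fgb without Control_water replicate 2 (edgeR adjusted p = 0.00582). Serpina3n differed by -1.27 (-2.87 to 0.32, edgeR adjusted p = 0.215), and passed without GN_captopril replicate 3 (0.0314). Of the other 3 the interval was widest for Serpina3f, from -1.44 to 1.89.

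The difference of both captopril effects, the interaction, was negative and past the threshold for Serpina3g and Fgb, 2 of the 6, where 27.1% of all genes had a negative interaction and 50.7% one in either direction. It was -1.89 ± 0.45 on the log2 scale for Serpina3g (edgeR adjusted p = 0.00355) and -2.52 ± 0.54 for Fgb (edgeR adjusted p = 0.0016). Fgg (adjusted p = 0.0525), Fga (0.0752), Serpina3f (0.206) and Serpina3n (0.907) did not pass in edgeR. With single libraries left out, Fgg passed without GN_captopril replicate 1, Control_captopril replicate 3 or Control_water replicate 2, Fga without GN_captopril replicate 1 or Control_water replicate 1, and Serpina3f without Control_captopril replicate 1. Fgg passed as well with upper-quartile scaling, no filter or a replicate block (edgeR adjusted p = 0.0367, 0.0431 and 0.0175). Upper-quartile scaling and the block also let Fga pass (0.0466 and 0.033). Both limma fits on RPKM let Fgg, Fga and Serpina3f pass (limma adjusted p at most 0.0253). The interaction has the sign structure of the sex-linked markers too, since Xist is lower in GN_captopril than in GN_water and higher in Control_captopril than in Control_water. Averaged over GN and controls, which balances those markers, captopril changed none of the 6 (6.51% of all genes changed). At an unadjusted p under 0.05, 1 was lower and 0 higher, and DESeq2 called 0. Serpina3n came nearest, at -1.35 ± 0.44 (edgeR adjusted p = 0.0819), and passed without GN_captopril replicate 3 (-1.92, edgeR adjusted p = 0.00222). Without GN_captopril replicate 1, Fgg passed (-0.58, edgeR adjusted p = 0.0395). An exchange of the control labels would give the captopril average the test of the present interaction, which Serpina3g and Fgb passed. That average would then no longer balance the sex-linked markers.

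**Figure D3:**
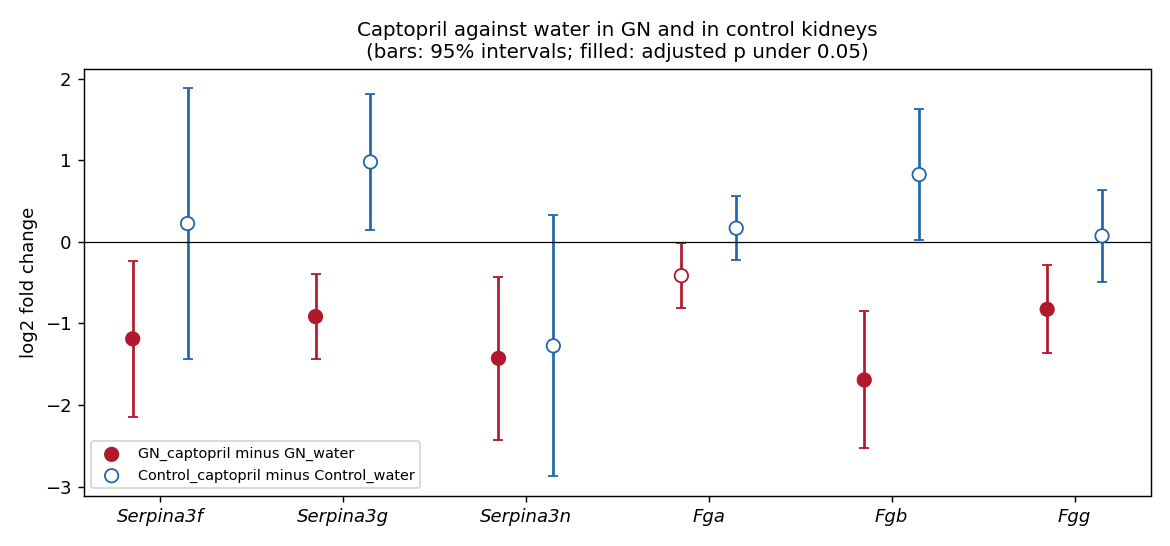
The plot gives the log2 fold change of captopril over water for 6 genes, in GN (left of each pair) and in controls (right), with 95% intervals and filled symbols where the adjusted p was under 0.05. In GN 5 of the 6 are filled and below 0, and in controls none is filled.

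Saa3 and Serpina3n varied together from library to library within GN. The Pearson r of their log2(CPM + 0.5), each centred on its group mean over the 6 GN libraries, was 0.97, and that of Serpina3f with Serpina3g was 0.961. Fgb ran the other way, at -0.614 with Saa3 and -0.838 with Serpina3f. These describe 6 libraries that share depth and tissue composition, and 4 independent deviations. The genes most like Saa3 by this measure, among 13605, were Pid1, Trim3, Sdc1 (syndecan 1, a cell surface proteoglycan) and Pkmyt1, with r between 0.9988 and 0.9999, and 217 genes (1.6%) reached 0.95. Pid1 had 5.85, 6.25 and 10.0 CPM in GN_captopril and 11.7, 16.3 and 12.9 CPM in GN_water.

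For Serpina3n the most alike were Gsdmd (gasdermin D, a pore former in inflammatory cell death), H2-Q7 (a class Ib histocompatibility gene), Smpd3 and Bhlhb9, for Serpina3g they were Stx8, Timm21, Prorsd1 and Xk, and for Fgb Ccdc97, Ncapd3, Ube2o and Slmap. At least 0.95 was reached by 243 genes (1.79%), 158 (1.16%) and 156 (1.15%). So many genes reach such values over 6 libraries that the names carry little weight. Gsdmd had 3.99, 4.44 and 6.60 CPM in GN_captopril and 8.38, 9.46 and 8.20 CPM in GN_water.

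Markers of other cells moved with Saa3. The 8 macrophage markers summed to between 459.9 and 941.8 CPM in GN_captopril, 954.6 and 1414 CPM in GN_water, 123.3 and 175 CPM in Control_captopril and 146.4 and 156.1 CPM in Control_water. In GN_captopril relative to GN_water 7 of the 8 fell (edgeR), where 25.5% of all genes fell. Marco, 1 of the 8 and a scavenger receptor of macrophages, had 1.99, 1.87 and 21.7 CPM in GN_captopril, 6.41, 75.7 and 23.3 CPM in GN_water and at most 0.101 CPM in any control. Its peaks were in the libraries that peaked for Saa3. Haptoglobin (Hp), an acute phase protein that binds haemoglobin, peaked in the same libraries, with 2.52, 8.06 and 30.1 CPM in GN_captopril and 11.7, 29.2 and 10.2 CPM in GN_water. The match was partial, as Hp was lowest of its group in GN_water replicate 3. Saa3 was higher there (37.8 CPM) than in GN_water replicate 1 (21.6 CPM). The part of these cells in the Saa3 values was not tested.

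The 7 adipocyte markers summed to between 48.2 and 427 CPM in GN_captopril, 80.3 and 270.3 CPM in GN_water, 116.3 and 242.1 CPM in Control_captopril and 62.4 and 137.3 CPM in Control_water, highest within GN in the Saa3-rich libraries. None of the 6 that passed the filter changed in the GN average (edgeR), where 16.3% of all genes rose and 14.6% fell. In GN_water replicate 3, with 37.8 CPM of Saa3, Fabp4 made up 76.7 of the 80.3 CPM, and Adipoq, the adiponectin gene, was at 0.198 CPM. The part of these cells in the Saa3 values was not tested. The 10 neutrophil markers summed to between 6.64 and 9.96 CPM in GN_captopril, 8.66 and 13.4 CPM in GN_water, 1.93 and 2.26 CPM in Control_captopril and 2.45 and 3.58 CPM in Control_water. All 4 of them that passed the filter rose in the GN average (edgeR), among them Csf3r, the G-CSF receptor, by 2.40 ± 0.19, while Mpo was at 0 in GN_captopril and Ly6g at 0 in GN_water. All 10 markers together held 38 to 68 counts in each control library, so some could pass the filter through GN libraries alone. Their part was not tested either. Adrenal cortex markers (7 genes) reached 118.3 CPM in GN_captopril replicate 3 and 349.9 CPM in a Control_captopril library. With both those libraries left out, 5 of the 6 genes fell in GN_captopril relative to GN_water, where 25.5% of all genes fell in the fit of all libraries. Other comparisons moved. In controls Fgb then passed as higher and Serpina3n as lower (edgeR adjusted p = 0.0418 and 0.0153). Fgg passed in the interaction (0.0268) and Serpina3n for captopril averaged (0.00222). The part of adrenal tissue was not tested.

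Liver and injured-tubule transcripts were set beside the fibrinogen genes. The 10 liver markers summed to between 40.9 and 126.3 CPM in GN_captopril, 29.6 and 49.8 CPM in GN_water, 45.6 and 49.6 CPM in Control_captopril and 63.5 and 193.5 CPM in Control_water. Of the 9 liver markers that passed the filter, 6 were lower and 1 higher in Control_captopril relative to Control_water (edgeR), where 32.4% of all genes changed. Ahsg, the fetuin A gene of the liver, was at most 0.303 CPM in Control_captopril, where Fgb was 5.66 to 11.5 CPM and Cps1 was at 0. These are 2 of the 10 markers, which together summed to at least 45.6 CPM there. Ahsg reached 13.7 CPM in Control_water replicate 2, the library with the most Fgb of its group. The 8 tubular injury markers summed to between 1154 and 1442 CPM in GN_captopril, 4336 and 4658 CPM in GN_water, 2815 and 3264 CPM in Control_captopril and 1298 and 1398 CPM in Control_water. Mean Fgb, like these sums, was higher in GN_water and Control_captopril than in GN_captopril and Control_water. Among controls the sums did not stand for the list. Of the 8 injury markers, 2 were higher, 2 lower and 4 not called in Control_captopril relative to Control_water (edgeR, median log2 difference -0.03). Their part in the fibrinogen values was not tested.

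The wider pathway was followed in 7 lists of 120 genes, all in the count table, of which 97 passed the filter. In GN averaged over both treatments, 62 rose and 3 fell (edgeR, adjusted p under 0.05), where 16.3% of all genes tested rose and 14.6% fell. The lists were chosen with earlier results of these data known. The counts here and below therefore describe the lists and are not independent support. Of the upstream signals, 15 of 16 tested genes of the interleukin 1, TNF and NF-kappaB list rose and none fell (median log2 difference 0.67, against -0.01 for all genes). Il1b, which encodes interleukin 1 beta, rose by 1.92 ± 0.14. Tnfaip3 (A20, a brake on NF-kappaB) rose by 1.001 ± 0.08, Nfkbia (the inhibitor IkappaB alpha) by 0.75 ± 0.06 and Nfkb2, a subunit of NF-kappaB, by 0.63 ± 0.05. The edgeR adjusted p was at most 3.16e-06 for these genes.

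Of 17 tested genes of the interleukin 6 family and STAT3, 10 rose and none fell in the average (median 0.50). In GN_water relative to Control_water 10 rose and 2 fell, and in GN_captopril relative to Control_captopril 9 rose and 1 fell. The interaction was negative for 6 and positive for 3, where 27.1% of all genes had a negative one and 50.7% one in either direction. Socs3, the feedback inhibitor of this pathway, had 7.51 ± 0.712 CPM in GN_captopril, 12.9 ± 2.25 CPM in GN_water, 3.70 ± 0.364 CPM in Control_captopril and 2.59 ± 0.946 CPM in Control_water (SD, n = 3 each), and rose by 1.66 ± 0.15 on the log2 scale. Bcl3, a nuclear cofactor of NF-kappaB, rose by 0.99 ± 0.10, Osmr, the oncostatin M receptor, by 0.83 ± 0.07 and Stat3 itself by 0.33 ± 0.06. In edgeR the adjusted p was 0.000689 for Stat3 and lower for the other 3.

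Of 25 tested genes of other acute phase proteins, 13 rose and none fell in the average (median 0.83). The average covers unlike comparisons: 18 rose and 5 fell in GN_captopril relative to Control_captopril, and 12 rose and 8 fell in GN_water relative to Control_water, and in the interaction 12 were higher and 7 lower. Lcn2, the lipocalin that binds bacterial iron carriers, had 6.22 ± 3.23 CPM in GN_captopril, 27.5 ± 6.11 CPM in GN_water, 1.99 ± 0.292 CPM in Control_captopril and 4.61 ± 0.713 CPM in Control_water, a rise of 2.10 ± 0.21 on the log2 scale. Il1rn, the interleukin 1 receptor antagonist, rose by 4.43 ± 0.30, Lbp, which carries LPS to its receptor, by 1.26 ± 0.09 and Cp (ceruloplasmin) by 0.66 ± 0.06. The edgeR adjusted p of these genes was at most 1.08e-05. Cp had an interaction of -2.41 ± 0.12, so its average covers fitted differences of opposite sign under water and under captopril. Among the 8 other Saa and Serpina3 genes Serpina3k alone passed the filter, with an average difference of 0.32 ± 0.97 (edgeR adjusted p = 0.841). It rose by 4.63 ± 1.34 in GN_captopril relative to Control_captopril (edgeR adjusted p = 0.0149) and fell by 3.998 in GN_water relative to Control_water (SE 1.02, edgeR adjusted p = 0.00538), with an interaction of 8.63 ± 1.67 (edgeR adjusted p = 0.000798). Saa4 averaged at most 0.496 CPM in any group.

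All 8 genes of serum amyloid A receptors were tested, and 6 rose (median 0.88). Fpr2, the formyl peptide receptor that binds serum amyloid A, rose by 5.09 ± 0.40, Tlr2 by 1.78 ± 0.13, Cd14, a co-receptor of LPS, by 1.39 ± 0.13 and Tlr4, the receptor of LPS, by 0.77 ± 0.09 (edgeR adjusted p at most 4.32e-05). Of 5 tested proteases that Serpina3 proteins can inhibit, 4 rose (median 1.24): Gzmb (granzyme B) by 2.73 ± 0.48, Mmp9 by 1.53 ± 0.38, Gzma (granzyme A) by 1.24 ± 0.22 and Ctsb (cathepsin B) by 0.18 ± 0.05 (edgeR adjusted p at most 0.0111). Of 25 genes of fibrin formation, lysis and receptors, 14 rose and 3 fell in the average (median 0.44). In GN_water relative to Control_water 15 rose and 5 fell, and in GN_captopril relative to Control_captopril 14 rose and 7 fell. Itgam and Itgb2, the chains of the leukocyte integrin that binds fibrin, rose by 3.14 ± 0.26 and 2.01 ± 0.19, and Icam1 by 0.90 ± 0.06 (edgeR adjusted p at most 5.85e-06). F5 (coagulation factor V), F13b (the B chain of factor XIII) and Plat (tissue plasminogen activator) fell in the average by 0.79, 0.45 and 0.20. The interactions of Plat and Ctsb were -1.36 ± 0.13 and -0.48 ± 0.10. Their averages therefore cover fitted differences of opposite sign under water and under captopril.

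In GN_captopril relative to GN_water, where 25.5% of all genes fell and 45.1% changed, 11 of 16 genes of interleukin 1, TNF and NF-kappaB, 13 of 25 of the fibrin list, 9 of 25 of other acute phase proteins, 5 of 17 of interleukin 6 and STAT3, 4 of 8 serum amyloid A receptors and 1 of 5 proteases were lower by the same test. Higher were 1, 5, 7, 2, 1 and 0 of them. Of the lower shares, that of the interleukin 6 list was near and that of the proteases under that of all genes. Lcn2 fell by 2.17 ± 0.26 (edgeR adjusted p = 2.62e-05). The macrophage sums given above move with these lists, and their part was not tested.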

How the data were processed

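The authors deposited estimated (expected) counts per gene symbol and RPKM values for 12 mouse kidney cortex libraries. The submitters' processing notes name Bowtie2, Partek and mm10. Their versions and roles, the gene models and any filter were not stated in these sources. In the deposited estimated counts 7.66% of entries were not whole (tolerance 0.01), and all were rounded before testing. The deposited RPKM values, which the authors scaled by depth and length, served as an alternative only.

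Genes were filtered with filterByExpr (minimum count 10, minimum total 15), given TMM scaling and tested by quasi-likelihood in edgeR 4.0.16 (R 4.3.3) fitting the 12 libraries together with 4 group means. Adjusted p-values are Benjamini-Hochberg over 14618 genes, at a threshold of 0.05, and log2 differences are given ± SE. CPM were computed from scaled totals. The procedure was tested on simulated data. Alternatives used limma 3.58.1, DESeq2 1.42.0, other scalings and filters, and left-out libraries. Gene positions and exon lengths came from GENCODE M21. Sequences were compared with Biopython 1.88 under Python 3.11.15, as global alignments counting gap columns, and figures drawn with matplotlib 3.10.9.

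The genes and lists were chosen with earlier results of these data known. Named genes were all 10 members, per list the 4 called genes of lowest adjusted p in the GN average (the 2 most abundant if no gene was called), the 4 genes most like Saa3, Serpina3g, Serpina3n and Fgb within GN (mean of at least 1 CPM), and marker genes beside a sum. A gene that met this rule is not reported here. F5, F13b and Plat were named after their values were seen, as the genes of the lists that fell. Hp was also named outside the rule, for its peaks in the libraries that peaked for Saa3. Groups came from the labels. Replicates of a group differed by more than counting noise.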

Additional observations from a re-analysis of the deposited data

Results flagged for a closer look

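For 2 genes the captopril difference in GN and that in controls were themselves different by the interaction test. The interaction of Serpina3g was -1.89 on the log2 scale (edgeR adjusted p = 0.00355), with a difference of -0.92 between GN_captopril and GN_water and of 0.98 between Control_captopril and Control_water. That of Fgb was -2.52 (edgeR adjusted p = 0.0016), with differences of -1.69 and 0.82. Of all genes 50.7% passed the same test, and the sex-linked transcripts have the same pattern over the 4 groups. Comparisons that include GN_water chose the genes, so this test is not independent of the choice. With 3 libraries a group, no library could be judged as standing apart by a formal rule.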

How the results depend on the processing

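The replicate numbers were given in accession order and did not pair the samples (correlations of same-numbered deviations -0.203 to 0.249). With a replicate block, the interaction called 4 genes lower in place of 2, Control_captopril minus Control_water called 1 higher and captopril averaged called 1 lower. Upper-quartile scaling gave 4 lower in the interaction, and limma on log2(RPKM + 0.1) and log2(RPKM + 1) gave 5 each, the second also 2 lower for captopril averaged. DESeq2 called 1 higher in controls and 5 pathway genes lower in the GN average, against 3. Fitting only the 2 groups compared gave 1 lower in controls. With both libraries rich in adrenal transcripts left out, 1 gene was higher and 1 lower in controls and 1 lower for captopril averaged. Leaving out both Saa3-rich GN libraries, chosen after seeing the data, gave the same 3 counts of 1, and 4 lower in GN_captopril minus GN_water. Leaving out 1 library at a time, the lower counts ran from 2 to 5 in GN_captopril minus GN_water, 2 to 4 in the interaction, 0 to 1 in controls (higher likewise 0 to 1), 0 to 1 for captopril averaged and 2 to 5 for pathway genes. The cause was not tested.

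Signs turned only for values that did not pass the main test. Serpina3g under captopril averaged (0.03) was -0.27 and -0.17 with limma on log2(RPKM + 0.1) and log2(RPKM + 1) (adjusted p = 0.248 and 0.0355), -0.20 without the adrenal-rich and -0.10 without the Saa3-rich libraries, and -0.11 to 0.20 without single libraries. Serpina3f in controls was -0.17 without the adrenal-rich libraries and -0.23 to 0.82 without single libraries. Without single libraries Fgg in controls ran from -0.080 to 0.28, the Serpina3n interaction from -1.29 to 0.31 and Fgb in GN_captopril minus Control_water from -0.91 to 0.055. Serpina3n in GN_captopril minus GN_water was not called by DESeq2 (adjusted p = 0.0703) or with only the 2 groups (0.0619). Saa1, Saa2 and Serpina3i lay too near the count floor for a test. Scaling shifted the median of all genes by at most 0.0711.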
